A study of Mus musculus with 12 samples.

Results

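Zeb2os and Bach2os are non-coding RNA genes of the mouse that lie inside, and take their names from, the genes of the transcription factors Zeb2 and Bach2. They were chosen as the genes to which RefSeq assigns an array probe through its NR or XR accession. Where a gene had several probes, the probe was to be selected on its mean level over the 12 arrays. Each gene had 1 probe, so this step left none out. RefSeq lists 2 transcripts of Zeb2os and 1 of Bach2os. The Zeb2os probe is assigned to 1 of the 2, and whether it also reads the other was not tested. The genes themselves were chosen by levels that differed between the 4 groups. The 2 genes are 2 of 4290 with a RefSeq-matched probe, and 2 of 2514 such genes whose probe could be tested. Zeb2os was read by 1 spot on each array and Bach2os by 2.

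The samples were 12 spleen RNAs of female BALB/c mice, aged 6 weeks at the start, injected intraperitoneally 3 times, on days 1, 3 and 5. The day 14 groups were 4 OVA samples (ovalbumin, an egg-white protein, at 2 mg/kg) and 2 control samples (normal saline), and the day 28 groups likewise were 4 OVA and 2 control samples. The labels call the OVA animals allergic. They name no adjuvant and no airway challenge, and no mouse of any group is described as carrying an altered allele. Whole-spleen RNA was labelled with Cy3 and hybridised to single-colour Agilent arrays. A level below is the log2 processed signal of the probe minus that array's 75th percentile, so a level of 0 is a signal at that percentile.

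ZEB2 is a zinc-finger and homeodomain protein that binds paired E-boxes and mostly represses transcription. In the immune system it is known for driving the terminal maturation of effector T cells and natural killer cells together with T-bet, and for its part in the development of monocytes, macrophages and dendritic cells. Its antisense partner is known from human epithelial cells, where the antisense RNA covers a splice site in the 5′ untranslated region of the ZEB2 transcript, keeps an intron in place and raises translation of the protein. BACH2 is a leucine-zipper repressor that pairs with small MAF proteins. It holds back the plasma cell programme in B cells and effector programmes in T cells, and mice without it develop type 2 inflammation of the lung. No role is assigned here to Bach2os.

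The genome around both genes is shown by the RefSeq sequences at hand (GRCm38.p6), since the probes' own sequences were not used here. Each window holds 250 bases before a transcript start in lower case and the first 50 transcribed bases in capitals. The Bach2os window, chr4:32571613-32571912 on the minus strand, lies inside the Bach2 gene, which is read from the plus strand. The table holds no window for Zeb2os, so the second sequence is a Zeb2 start on the minus strand, chr2:45113230-45113529. It is the more upstream of the 2 among 4 listed Zeb2 windows that lie inside the RefSeq extent of Zeb2os, and it is shown as a start of the host gene within that extent.
Bach2os: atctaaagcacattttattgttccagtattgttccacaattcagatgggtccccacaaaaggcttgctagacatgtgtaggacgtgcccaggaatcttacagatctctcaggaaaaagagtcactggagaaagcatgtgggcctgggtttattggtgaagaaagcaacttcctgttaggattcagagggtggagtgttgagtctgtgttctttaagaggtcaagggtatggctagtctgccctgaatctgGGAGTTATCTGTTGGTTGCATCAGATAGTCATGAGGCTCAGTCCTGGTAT
Zeb2: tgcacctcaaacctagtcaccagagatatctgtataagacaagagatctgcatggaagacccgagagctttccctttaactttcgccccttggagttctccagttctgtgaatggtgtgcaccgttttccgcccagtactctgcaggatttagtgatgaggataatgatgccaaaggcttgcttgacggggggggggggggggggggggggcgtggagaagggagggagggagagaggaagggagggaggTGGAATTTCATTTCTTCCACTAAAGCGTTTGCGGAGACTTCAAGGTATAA
Both windows were searched on both strands for 3 motifs. The E-box CACCTG, read by ZEB proteins, and TGANTCA, the core shared by AP-1 and BACH-MAF dimers, matched neither window, against 20.2% and 7.8% of 32851 mouse windows of the same length. The STAT site TTCNNNGAA matched 1 time in the Zeb2 window, from base 104, and not in the Bach2os window, against 8.3% of all windows. These are letter matches in these windows and say nothing about binding.

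The arrays of each OVA group lay on a slide of their own and all 4 controls lay on another, so a slide's effect and a group's effect cannot be told apart where OVA is set against control or one OVA day against the other. The control arrays of both days shared 1 slide. The OVA arrays of day 14 had a 75th percentile of 266.7 to 287.5 signal units, those of day 28 one of 483.8 to 549.3, and the controls one of 316.4 to 368.1. Between 57.5% and 80% of spots were well above background, with OVA day 14 replicate 2 the lowest. Of 62 marker genes of 11 spleen cell types or states, none had a named probe, so the tissue label and the cell makeup could not be checked. Zeb2 and Bach2 themselves had no named probe, and their messenger RNAs were not analysed here.

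Both probes were dim and measurable. The median pixel of the Zeb2os spot was 3.61 to 13.4 times its local background over the 12 arrays, and that of Bach2os 3.04 to 5.22 times. Zeb2os was well above background on 12 arrays. Both Bach2os spots were well above background on 11 arrays, and 1 of 2 on OVA day 14 replicate 2. No spot of either gene was saturated or marked as an outlier. Around each spot, the surrounding spots within 10 rows and columns departed from the other arrays by -0.16 to 0.20 on the log2 scale, with -0.16 to 0.08 on the control arrays of day 14.

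Zeb2os was high in the OVA spleens of day 28 and lower in all other samples. The 4 OVA spleens of day 28 stood at -1.15, -1.34, -0.97 and -1.11, against -2.11 and -1.85 in the day 28 controls. The OVA spleens of day 14 stood at -2.15, -2.59, -2.51 and -2.03, against -2.01 and -1.91 in the day 14 controls. All 4 OVA arrays of day 28 thus lay above all 8 other arrays, as did 10.7% of the 72515 tested features. The choice of the gene by its levels in these groups favours such a separation. In linear terms the geometric mean was 45.3% of the 75th percentile in OVA at day 28 and 25.3% in the day 28 controls. At day 14 the geometric mean was 20% in OVA and 25.7% in the controls. In spleen RNA a gain or loss of cells that make a transcript and a change in RNA per cell cannot be told apart.

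**Figure D1:**
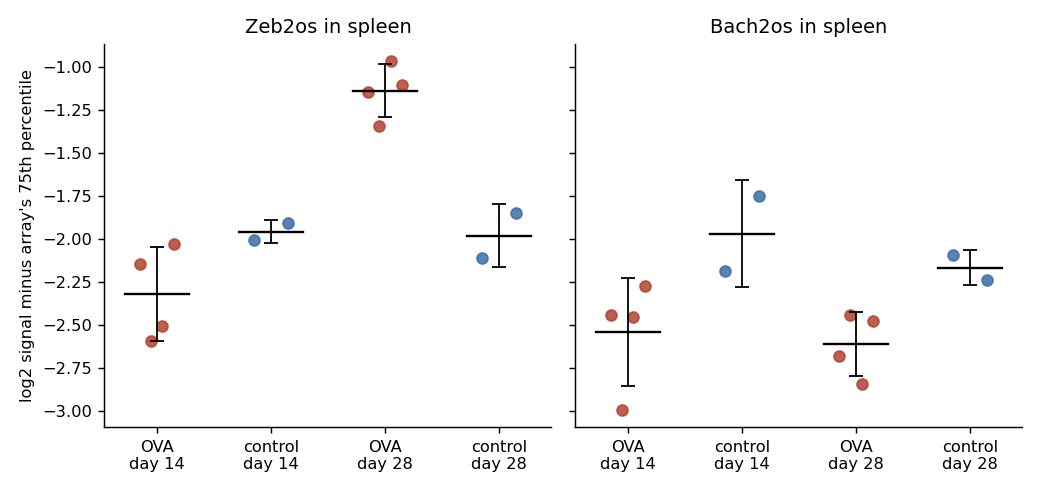
Level of each gene (log2 signal minus the array's 75th percentile) by group; points are arrays (4 OVA in red, 2 control in blue per day), lines the mean and bars the SD. Zeb2os in OVA at day 28 lies between -1.34 and -0.97, above every other array, and the 8 Bach2os OVA values all lie below the 4 control values.

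At day 28 Zeb2os rose in OVA. OVA spleens averaged -1.14 ± 0.15 (SD, n = 4), against -1.98 ± 0.18 (SD, n = 2) for controls, a difference of 0.84 ± 0.17 (SE, log2; 95% interval 0.48 to 1.21; 1.79-fold; limma, adjusted p = 0.0102). The 2 groups did not overlap. At this day 14.1% of all tested features were called, 7.44% of all as higher in OVA, and 19.1% had every OVA array above both controls. Since the gene was singled out with this difference in view, the p-values of Zeb2os and Bach2os set a difference against the spread between samples and are no independent evidence. Without control day 28 replicate 1 the difference shrank to 0.71, short of the threshold (adjusted p = 0.0915). With normexp, which adds 50 signal units, it was 0.50 and passed, where 27651 of 72515 features were called, 22.9% of them as higher.

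At day 14 the Zeb2os mean of OVA spleens was -2.32 ± 0.27 (SD, n = 4), against -1.96 ± 0.07 (SD, n = 2) for controls. The difference of -0.36 ± 0.17 (SE, log2; 95% interval -0.73 to 0.00) did not pass (limma, adjusted p = 0.343). It was -0.10 with normexp and -0.12 with 50 units added. Every OVA array lay below both controls, which also held for 6.89% of features, while 0.0676% were called. The highest OVA array, replicate 4 at -2.03, lay just below the lower control at -2.01.

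The OVA effect on Zeb2os was larger at day 28 than at day 14 by 1.20 ± 0.24 (SE, log2; 95% interval 0.69 to 1.72; limma, adjusted p = 0.0288), in a comparison that called 2.95% of features, 1.59% as larger at day 28. This call was lost in 10 of 25 alternatives. Of these, 6 left out 1 array: control day 14 replicate 1 (1.25, adjusted p = 0.0679), control day 28 replicate 1 (1.07, adjusted p = 0.0961), control day 28 replicate 2 (1.33, adjusted p = 0.0711), OVA day 14 replicate 3 (1.14, adjusted p = 0.0553), OVA day 28 replicate 1 (1.20, adjusted p = 0.0587) or OVA day 28 replicate 3 (1.15, adjusted p = 0.0590). The replicate block also lost it (1.20, adjusted p = 0.066). With normexp the difference was 0.61 and with 50 units added 0.63, and both passed (adjusted p = 0.0148 and 0.00848). In these settings 22051 and 24000 of 72515 features were called. The split of the calls over all features moved with the scaling: 53.9% of them were larger at day 28 as reported, 14.8% with normexp and 97.4% with spike-in scaling.

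Between the OVA groups Zeb2os was 2.26-fold higher at day 28 than at day 14 (1.18 ± 0.14, SE, log2; 95% interval 0.88 to 1.48; limma, adjusted p = 0.000168). No OVA array of day 28 overlapped with one of day 14. The background here is wide: 34.1% of features were called, 15% of all as higher at day 28, and 15.7% had every array of day 28 above every array of day 14. The call held in all 26 alternatives, with differences between 0.58 (normexp) and 1.29 (spike-in scaling), and 0.64 with 50 units added to the processed signal. Normexp called 47594 of 72515 features and 50 units added called 46257, 19.5% and 20.2% of them as higher.

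The controls of both days differed little in Zeb2os, by -0.02 ± 0.19 (SE, log2; 95% interval -0.45 to 0.40; limma, adjusted p = 0.977), and their arrays overlapped. In order of level, OVA at day 28 stood highest, then the controls of day 14 and of day 28, then OVA at day 14. The 2 control groups, neighbours in this order, did not differ beyond their spread. Groups of different day and treatment were not tested against each other. Among all features 0.00138% were called between the controls.

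Bach2os gave another picture: its level was lower in OVA spleens on both days, and neither difference passed the test. At day 14 it stood at -2.44, -2.99, -2.45 and -2.27 in OVA, against -2.19 and -1.75 in control spleens. At day 28 it stood at -2.68, -2.44, -2.84 and -2.48 in OVA, against -2.09 and -2.24 in control spleens. OVA and control samples did not overlap on either day, as in 6.89% of features at day 14 and 23.1% at day 28 in this direction, and all 8 OVA arrays lay below all 4 controls, as in 0.556% of tested features. The margin was small: the highest OVA array stood at -2.27 (OVA day 14 replicate 4) and the lowest control at -2.24 (control day 28 replicate 2). The choice of the gene by its levels in these groups favours such a separation, so these shares are no independent evidence. All 4 controls also shared a slide that held no OVA array.

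At day 14 the Bach2os mean of OVA spleens was -2.54 ± 0.31 (SD, n = 4), against -1.97 ± 0.31 (SD, n = 2) for controls, a difference of -0.57 ± 0.20 (SE, log2; 95% interval -1.0 to -0.14; limma, adjusted p = 0.23). It was -0.35 without control day 14 replicate 2, the array with its highest scaled level, and -0.15 with normexp. At day 28 OVA spleens averaged -2.61 ± 0.19 (SD, n = 4), against -2.17 ± 0.10 (SD, n = 2) for controls, a difference of -0.44 ± 0.20 (SE, log2; 95% interval -0.88 to -0.01; limma, adjusted p = 0.157). The day 28 difference passed in 2 of 25 alternatives, normexp (-0.47, adjusted p = 0.00217) and the processed signal with 50 units added (-0.45, adjusted p = 0.0063). In these settings 27651 and 29076 of 72515 features were called, 22.9% and 22.5% of them as higher. The median of all features was -0.15 and -0.16 there, against -0.03 as reported.

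The mean of the OVA effects of both days was fitted after these values had been seen. For Bach2os it was -0.51 ± 0.14 (SE, log2; 95% interval -0.81 to -0.20; 1.42-fold lower in OVA), with an adjusted p of 0.0538 by limma that missed the threshold, where 6.52% of features were called, 1.57% of all as lower. It passed in 8 of 24 alternatives, among them without control day 14 replicate 1 (-0.62) and without OVA day 14 replicate 2 (-0.43), and was negative in all of them, from -0.64 to -0.31. For Zeb2os, whose effects on the 2 days had opposite signs, this mean was 0.24 ± 0.12 (SE, log2; adjusted p = 0.225). For Bach2os the effects of the days differed by 0.13 ± 0.28 (SE, log2; 95% interval -0.49 to 0.74; adjusted p = 0.826).

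Within the OVA samples Bach2os differed between day 28 and day 14 by -0.07 ± 0.16 (SE, log2; 95% interval -0.43 to 0.28; limma, adjusted p = 0.764), and within the controls by -0.20 ± 0.23 (95% interval -0.70 to 0.30; adjusted p = 0.807). Its arrays overlapped in both comparisons. The first value was -0.40 with normexp and -0.33 with 50 units added, where it passed (adjusted p = 0.000312 and 0.00564). In these settings 47594 and 46257 of 72515 features were called, 19.5% and 20.2% of them as higher. The median of all features was -0.23 and -0.22 there, against -0.06 as reported. In order of level the controls of day 14 stood highest, then the controls of day 28, OVA at day 14 and OVA at day 28, and none of the 4 differences fitted between these groups, by treatment within a day or by day within a treatment, passed.

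**Figure D2:**
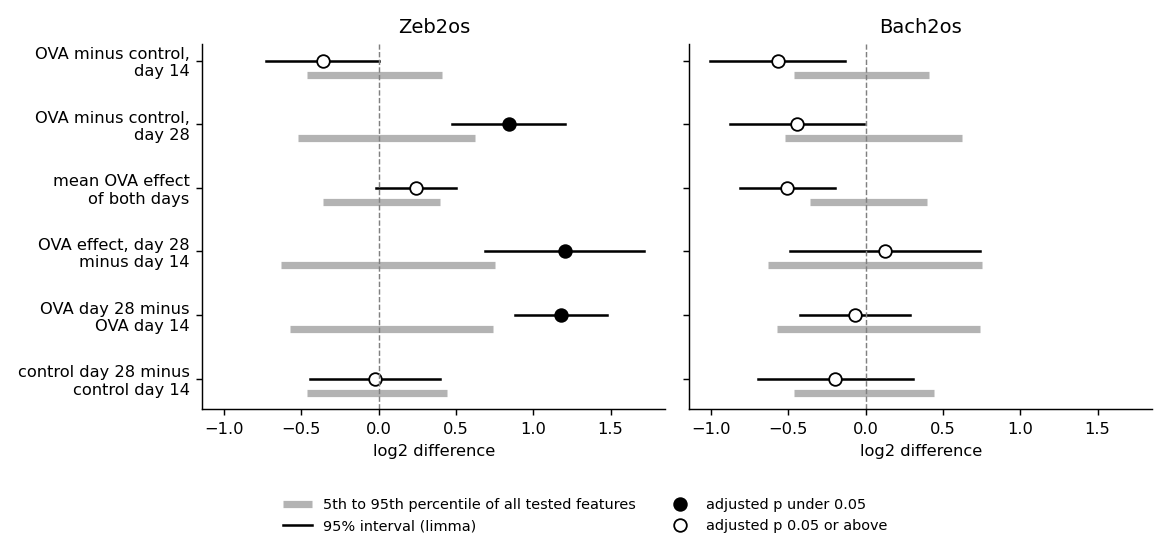
Log2 difference of each gene in 6 comparisons (points), with its 95% interval from limma (thin lines) and the 5th to 95th percentile of all 72515 tested features (grey bars); filled points have an adjusted p under 0.05. Zeb2os passed in 3 comparisons (0.84, 1.20 and 1.18) and Bach2os in none.

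The 2 Bach2os spots of an array give a technical check that the single Zeb2os spot cannot. The gap between them had a median of 0.175 on the log2 scale and was widest, at 0.58, on OVA day 14 replicate 2, the array with the lowest level. Spot by spot the difference between OVA and control was -0.73 and -0.41 at day 14, and -0.41 and -0.48 at day 28. Both spots gave lower OVA means on both days. On each day 1 spot alone separated the groups and the other did not. At day 14 the first spot reached at most -2.32 in OVA and at least -2.08 in control spleens, while the second reached -2.18 in OVA and went down to -2.30 in control spleens. At day 28 the second spot reached at most -2.38 in OVA and at least -2.19 in control spleens, while the first reached -2.25 in OVA and went down to -2.29 in control spleens.

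The scaling enters these differences, because the arrays of OVA at day 28 were brighter as a whole. The unscaled Zeb2os signal was 200.5 to 255.1 units in OVA at day 28 and 75.4 to 87.6 in the day 28 controls, and 44.2 to 67.5 in OVA at day 14 and 85.1 to 91.6 in the day 14 controls. Zeb2os thus separated these groups without any scaling. On both days this was also the direction in which the 75th percentiles of the arrays differed. The unscaled Bach2os signal was 67.4 to 98.7 units in OVA at day 28 and 66.9 to 76.4 in the day 28 controls, and these ranges overlapped. At day 14 it was 33.5 to 57.1 units in OVA and 80.7 to 95 in control spleens, without overlap. The 8 bright spike-in controls, RNAs added at fixed amounts, had a geometric mean of 2798 units on the OVA arrays of day 28 and 1750 on the day 28 controls. Relative to the 75th percentile they differed by 0.02 on average at day 28 (-0.41 to 0.50) and by 0.25 at day 14 (0.14 to 0.37). With spike-in scaling Bach2os differed between OVA and control by -0.82 at day 14 and -0.46 at day 28, and Zeb2os by -0.62 and 0.82. What the brighter slide contributes was not tested.

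**Figure D3:**
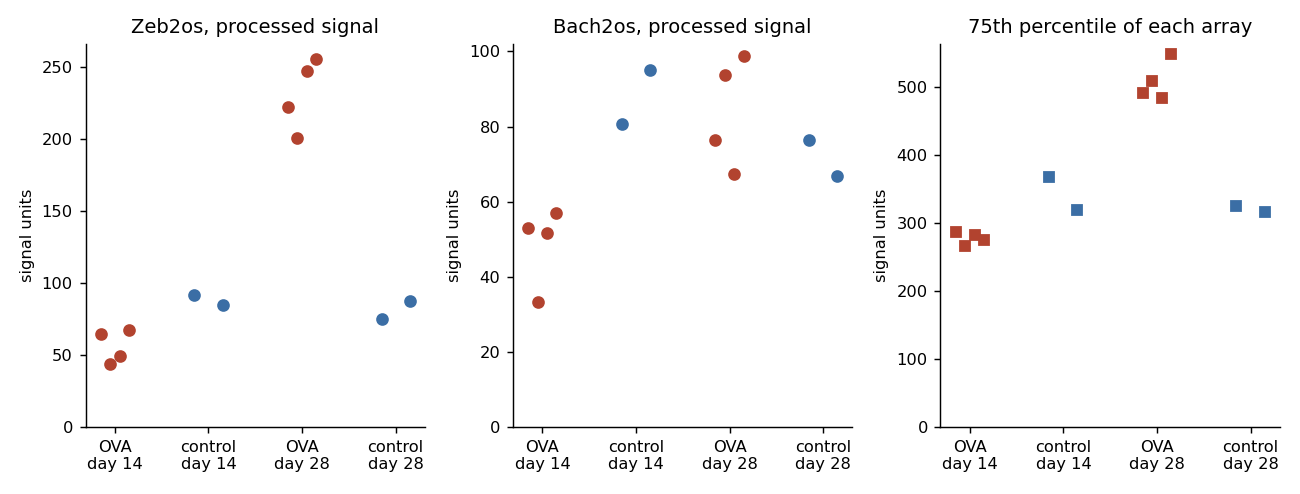
Unscaled processed signal of each gene and the 75th percentile of each array, in signal units by group (OVA red, control blue; each point is 1 array). Zeb2os reaches 200.5 to 255.1 units on the OVA arrays of day 28, where the 75th percentile is also highest (483.8 to 549.3 units), while Bach2os there overlaps with its controls.

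Other opposite-strand transcripts give a frame for these values. Of 63 other RefSeq genes with a probe whose symbol ends in os, or in os and a number, 38 were tested. At day 28, 1 of the 38 rose and 1 fell in OVA, where 14.1% of all features were called, with a median difference of 0.05 against -0.03 over all features. At day 14 none of the 38 passed, where 0.0676% of all features were called (median 0.06 against 0.05). Counting the 2 genes in, Zeb2os had the highest difference but 1 of 40 at day 28 and the fourth lowest at day 14. Bach2os had the fourth lowest at day 28 and the lowest but 1 at day 14. The choice of the 2 genes by their levels in these groups favours such ranks. The transcript above Zeb2os at day 28 was Tvp23bos (limma, adjusted p = 0.000159), which was well above background on 4 of 12 arrays, those of OVA at day 28. A feature was tested when well above background on all arrays of at least 1 group. Tvp23bos entered through OVA at day 28 alone, where it is high, so its call, the 1 rise, is favoured by this filter. Appbp2os fell by 0.58 ± 0.15 (SE, log2), with means of -1.63 in OVA and -1.05 in control spleens (adjusted p = 0.0316). Between OVA at day 28 and at day 14, 3 of the 38 were higher and 4 lower, where 34.1% of all features were called.

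Genes around the 2 loci were measured only in part. Within 500 kb of Zeb2os RefSeq lists 12 other genes, and 3 of them, Gm28643, Gm30728 and Gm30848, had a probe. None of the 3 was well above background on any array. Within 500 kb of Bach2os 2 of 18 other genes had a probe and both were tested. For Gm42266, a predicted gene, OVA spleens of day 14 averaged -2.47 ± 0.09 (SD, n = 4), against -2.75 ± 0.08 (SD, n = 2) for controls, a difference of 0.28 that did not pass (adjusted p = 0.359). At day 28 it averaged -2.80 in OVA and -2.80 in control spleens. It fell by 0.32 in OVA at day 28 relative to OVA at day 14 (limma, adjusted p = 0.0384), where 34.1% of all features were called. 4933421O10Rik differed by 0.13 and 0.39 between OVA and control on the 2 days and did not pass (adjusted p = 0.855 and 0.342). Neither neighbour had a lower OVA level on both days.

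The listed genes of the pathways, coding genes and some microRNA genes, had no named probe. This holds for 23 genes of the ZEB2 and SMAD repressor circuit, 15 that ZEB2 is known with in effector T, natural killer and myeloid cells, and 22 known with BACH2 in B and T cells. Of 20 non-coding genes studied in immune cells 7 had a probe and 5 were tested, with median differences of -0.04 at day 14 and 0.11 at day 28. None of the 5 was called between OVA and control on either day, where 0.0676% of all features were called at day 14 and 14.1% at day 28, so a count of 0 among so few genes says little. Ifngas1, beside the interferon gamma gene, and Morrbid, which controls the lifespan of myeloid cells, differed at day 28 by 0.15 ± 0.20 and -0.03 ± 0.19 (SE, log2). The other 3 were Mirt2 (0.13), Trp53cor1 (0.11) and AW112010 (0.06). AW112010 fell by 0.46 ± 0.14 (SE, log2) in OVA at day 28 relative to OVA at day 14 (limma, adjusted p = 0.0256). In that comparison 34.1% of all features were called. Between the controls of day 28 and day 14 it differed by -0.23 ± 0.20 (SE, log2) and did not pass.

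Likeness to each gene was measured as Pearson's r over the 12 arrays against 164 tested genes with a name other than a Gm, LOC, Rik or clone type. The arrays share slides and scaling, and the 4 OVA arrays of day 28 stand apart as a block, so r is a description and carries no p. For Zeb2os the highest r were those of transcripts of Smim10l1 (0.95), Zfp410 (0.93) and Khdrbs1 (0.90), the last the gene of an RNA-binding protein. The pseudogene Olfr1372-ps1 (0.90) and Tvp23bos (0.87) completed the 5 highest. Each probe is named by a transcript, and for a coding gene its value need not be that of the messenger RNA. Zfp410, Olfr1372-ps1 and Tvp23bos were well above background on 7, 4 and 4 arrays. Tvp23bos was tested only through OVA at day 28, where it is high, which favours its r. The same may hold for Olfr1372-ps1. After each group's mean was taken off, r was 0.74 for Smim10l1, 0.57 for Zfp410, 0.32 for Olfr1372-ps1, 0.48 for Khdrbs1 and -0.08 for Tvp23bos. Smim10l1 differed by 0.60 in OVA at day 28 (adjusted p = 0.0151) and by -0.08 at day 14, a likeness to Zeb2os that its choice by r favours. The lowest r were those of Cdrt4os1 (-0.87), a transcript of Bcor, the gene of a BCL6 corepressor (-0.85), and Rpph1, the RNA of RNase P (-0.84).

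For Bach2os the highest r belonged to the pseudogene Cdk3 (0.87), Cerox1, a non-coding RNA known for raising mitochondrial complex I (0.85), the pseudogene Mnd1-ps (0.73), Snhg16, a host gene of small nucleolar RNAs (0.67), and a transcript of Ager (0.67). Cdk3, Mnd1-ps and Ager were well above background on 11 arrays, Cerox1 on 10 and Snhg16 on 12. Within groups r was 0.75 for Cdk3, 0.89 for Cerox1, 0.47 for Mnd1-ps, 0.54 for Snhg16 and 0.26 for Ager. Their differences between OVA and control, whose sign the choice by r favours, lay between -0.41 and -0.13 at day 14 and between -0.54 and -0.28 at day 28, and none passed. The lowest r were those of a transcript of Scnn1b (-0.69), a transcript of Chchd7 (-0.66) and Gt(ROSA)26Sor (-0.64). Between Zeb2os and Bach2os themselves r was -0.17 over all arrays and 0.33 within groups.

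**Figure D4:**
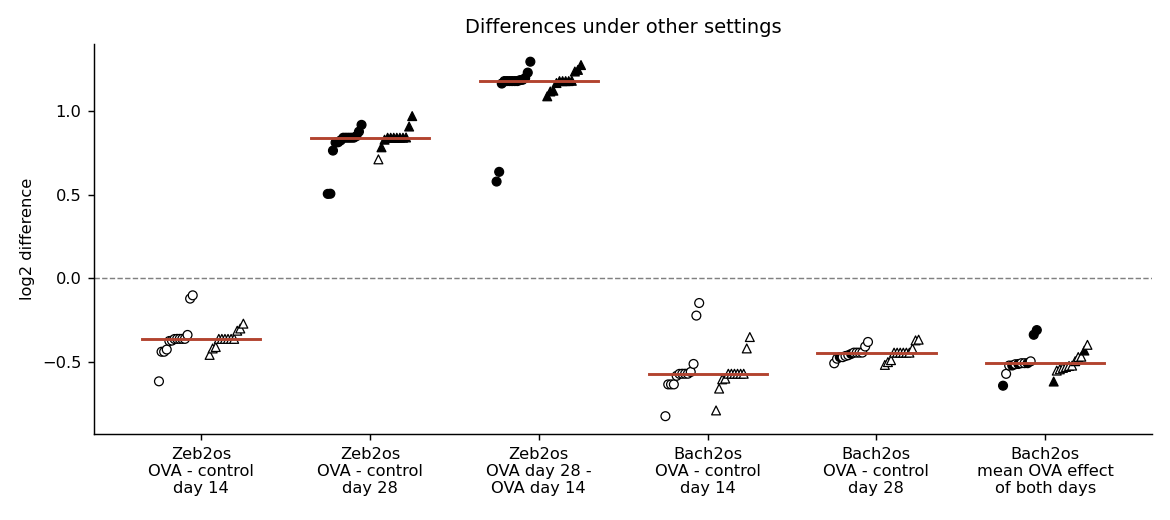
Log2 differences of 6 results under each alternative: circles are other settings, triangles fits without 1 array, filled where the adjusted p is under 0.05, and the red line is the reported value. Zeb2os in OVA day 28 minus OVA day 14 is filled throughout (0.58 to 1.29), and the Bach2os values lie below 0 in all fits shown.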

How the data were processed

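The deposited scanner files hold a linear intensity per spot. Per the file headers, Feature Extraction 11.5.1.1 (Agilent) made them; the submitters' processing notes name version 9.1. The processed signal had been background-subtracted by that program. The flags (other columns: well above background, outlier, saturated) are from the same deposited files. From 175906 non-control spots, outlier spots were left out, log2 was taken, each array's 75th percentile subtracted and the spots of a probe averaged. A feature was tested when well above background on all arrays of at least 1 group (72515). All 12 arrays entered 1 limma model (limma 3.58.1, R 4.3.3) with the 4 groups as terms; adjusted p is Benjamini-Hochberg over all tested features, with 0.05 as threshold. The model was tested on simulated data with independent noise and no slide effect, so the test does not cover the slides of these arrays. At day 28 it called 65% of 100 features changed by 1 log2 unit and 95% of 100 changed by 2, and 7 unchanged features. Names come from RefSeq accessions (GRCm38.p6). Genes other than the 2 were named by a fixed rule: the 5 highest and 3 lowest r, neighbours, list members and, among opposite-strand transcripts, the 2 highest and 2 lowest called at day 28 (1 of each passed). The genes and lists were chosen with earlier results of these data known. The labels number the samples and do not say that each is a separate mouse; p-values then measure only the spread between these samples, which may be technical, and the number of arrays limits the precision. The authors' table of processed values does not hold the 2 probes and was not used.

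The arrays have no mean signal column, so normexp used the median signal and background with an offset of 50. Other alternatives were 50 added to the processed signal, other scalings, filters, weights, blocks, and each array left out.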

Additional observations from a re-analysis of the deposited data

Results flagged for a closer look

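The OVA effect on Zeb2os differed between the days by 1.2 on the log2 scale (interaction term, limma, adjusted p = 0.0288): -0.36 at day 14 and 0.84 at day 28. Because a separate slide held the OVA samples of either day, a change of the effect and a slide difference cannot be told apart.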

How the results depend on the processing

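Of 302 values of the 2 genes under other settings, 266 kept their direction and side of the threshold, 11 lost and 12 gained a call, and 13 changed sign; the causes were not tested. For Bach2os, normexp and 50 units added to the signal gave -0.47 and -0.45 at day 28, both passing, -0.32 and -0.23 for the difference between the effects, against 0.13, and -0.40 and -0.33 for OVA day 28 minus OVA day 14, both passing. Spike-in scaling turned that last value to 0.0451. With normexp and with 50 added, most calls over all features in these comparisons were in the lower direction. The Bach2os mean of both days passed at -0.31 (normexp), -0.34 (50 added), -0.52 (percentile over detected probes), -0.51 (quantile), -0.64 (spike-in) and -0.51 (trend and robust). The Zeb2os control difference, -0.02, was 0.0093 with 50 added, 0.0106 with the median and 0.000772 with quantile normalization. The Zeb2os difference between the effects lost its call without a filter on dim probes (1.20), with array weights (1.19) and with array position as a block (1.36).

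After each group's mean was taken off, same-numbered samples correlated at -0.18 to 0.32 over 14 pairs, 4 of them over 0.1. These are correlations of what is left, not of the levels. With 2 controls a day, both pairs of a day 14 with a day 28 control necessarily hold the same value (-0.075). Differently numbered pairs were not set beside them, so these values cannot show whether the numbers pair the samples. With the replicate block the Zeb2os difference between the effects was 1.20 (adjusted p = 0.066), Zeb2os at day 28 was 0.76 and the Bach2os mean was -0.57.

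With 1 array left out in turn, Zeb2os at day 28 ranged from 0.71 to 0.97, its difference between the effects from 1.07 to 1.33 and its control difference from -0.15 to 0.11. Bach2os ranged from -0.0932 to 0.35 for the difference, -0.22 to 0.0180 for OVA day 28 minus OVA day 14, -0.42 to 0.0225 for the controls and -0.62 to -0.40 for the mean. A lone control left in a group is assumed to vary like the other groups.

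The number of features called moved from 49 to between 0 (only the groups compared) and 2309 (without control day 14 replicate 2) at day 14, and from 10191 to between 1886 (without control day 28 replicate 2) and 29076 (50 added) at day 28. It was 0 to 24000 for the difference (main 2138), 19067 to 47594 between the OVA groups (24708), 0 to 1892 between the controls (1) and 503 to 9078 for the mean (4725). Spike-in scaling shifted the median of all features by -0.25 at day 14, and by 0.24 for the difference between the effects. The share of day 28 calls higher in OVA was 52.9% as reported and 22.9% with normexp. With spike-in scaling the share of higher calls was 7.24% at day 14 (91.8% as reported), 71.5% between the OVA groups (43.9%; 19.5% with normexp) and 15.8% for the mean (76.0%).

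Not run were the mean of all probes and each other probe, since each gene has 1 probe, and the fit of only the groups compared for the difference and the mean. Bach2os has no value where probes had to be well above background on all 12 arrays. Both probes are dim, so a background offset weighs on their differences.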
